A study of Mus musculus with 4 samples.

Results

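The genes described are 10 members of the Wnt pathway that signal between cells or damp that signal. They were listed by name and role, with earlier results of these data known, and are 2 ligands (Wnt2, Wnt5a), 6 secreted proteins of the Sfrp, Dkk and Wif families (Sfrp1, Sfrp2, Sfrp4, Dkk2, Dkk3, Wif1) and 2 intracellular feedback genes (Nkd2, Axin2). They are 10 of the 30406 gene IDs that the 4 libraries shared. The libraries were 10x single-cell RNA libraries of submandibular gland cells from C57BL6/J mice, all female, in which stromal cells had been enriched by bead depletion of EpCAM+ and Ter119+ cells and of dead cells. In 1 ligated library the main ducts had been closed with a metal clip for 14 days, and in 3 mock libraries (mock 1, mock 2 and mock 3) the ducts had been located without a clip and the glands taken at 14 days. The labels speak of harvesting submandibular and sublingual glands together, give no age, and do not say whether the libraries came from separate animals. With 1 ligated library, every p-value below rests on the spread between the 3 mock libraries, which may be technical.

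Wnt proteins are lipid-modified ligands that act over short distances through Frizzled receptors and Lrp5/6. In the canonical branch they stabilise β-catenin, which then acts with Tcf/Lef factors on target genes, and some of those targets, such as Axin2, feed back to lower the signal. Stromal cells of many glands are known sources of Wnt ligands, R-spondins and secreted inhibitors that act on the neighbouring epithelium.

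Nkd2 was the member that differed most in fibroblast-like cells, with 148 CPM (UMIs of the gene per 1000000 UMIs of the class in a library) in the ligated library, against 25.4, 9.75 and 11.4 CPM in mock 1, mock 2 and mock 3. Axin2, Dkk3 and Sfrp1 were also higher in ligated fibroblast-like cells than in each mock library, by smaller amounts, and Wnt5a was lower than in each. Sfrp2, Sfrp4 and Wnt2 lay within the mock range. Ligated and mock fibroblast-like cells lay largely in different clusters, and within the cluster that held most of the ligated ones the log2 fold change was 1.26 for Nkd2, 0.06 for Axin2 and -0.05 for Dkk3, against 3.38, 1.37 and 1.36 over the whole class. No member passed edgeR's quasi-likelihood test at an adjusted p of 0.05 in any class, and Nkd2 alone passed with DESeq2 in fibroblast-like cells.

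The libraries held 80187555 UMIs (ligated) and 29897488, 47182114 and 56932041 UMIs (mock 1, mock 2 and mock 3), and 11773 ligated and 4405, 8505 and 11297 mock cells were kept. Cells were clustered without the Wnt genes, and 31 of 36 clusters were given a class name from markers. The fibroblast-like class held 1233 ligated cells and 195, 354 and 499 mock cells, with a median of 8481 UMIs per ligated cell and 10780, 7786 and 6494 UMIs per mock cell. All 9 fibroblast markers were detected in it, summing to 29779 CPM in the ligated library and 34500, 37555 and 37614 CPM in the mock libraries. A list of 8 NK markers summed to 77.3 CPM in ligated fibroblast-like cells, with 0 of 8 at 0, against 7.81, 3.61 and 10.5 CPM in the mock ones, with 1, 2 and 1 of 8 at 0. A list of 9 mural markers summed to 220 CPM there, against 81.5, 92.1 and 89.5 CPM. The part of these cells' RNA in the values below was not tested; sub-clusters led by genes of other classes held 19.9% of ligated and 2.05%, 6.78% and 6.61% of mock fibroblast-like cells, and leaving them out, a choice made after seeing the data, gave Nkd2 a log2 fold change of 3.40 and Axin2 one of 1.39. The file headers named Cell Ranger 6.0.1 for the ligated and mock 1 libraries and 7.0.0 for mock 2 and mock 3. Mock 1 is thus the only mock library made with the same version as the ligated one. Its gene list differed, with 31053 IDs against 32285 for the ligated library and 32287 for mock 2 and mock 3. A ratio to mock 1 is therefore not matched in all of the processing. In fibroblast-like cells mock 2 and mock 3 were much alike (chi-square per degree of freedom 1.5 over genes), while the other pairs of libraries gave 17.5 to 67.9. Between 11 and 61 barcodes were shared by any pair of libraries.

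**Figure D1:**
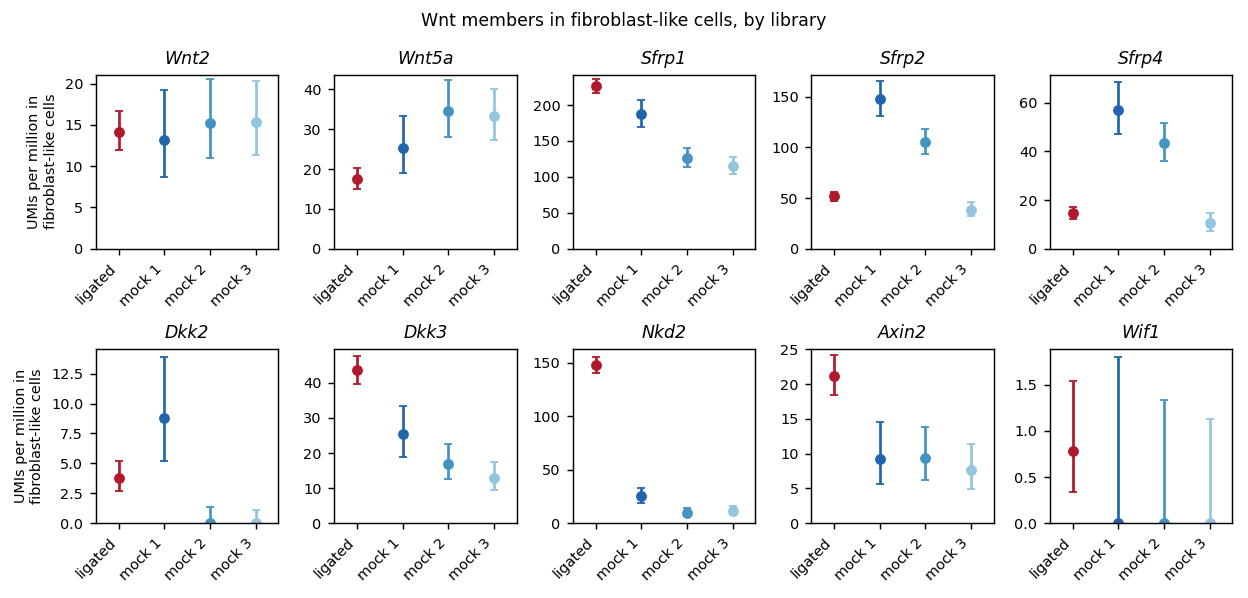
Level of each member in fibroblast-like cells (CPM, each panel with its own linear axis from 0) in the ligated library and the 3 mock libraries; bars are exact 95% Poisson intervals, which cover counting error only. Nkd2 stands at 148 CPM in the ligated library, against 9.75 to 25.4 CPM in the mock libraries.

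The 2 feedback genes are shown first, with their promoters, because the results turn on them. Nkd2 encodes a Naked cuticle homolog that binds Dishevelled and antagonises Wnt signalling, and lies on the minus strand of mm10 at chr13:73818534-73847631. Axin2 encodes a scaffold of the complex that degrades β-catenin and is a widely used target gene of the canonical branch; it lies on the plus strand at chr11:108920349-108950783. The 250 bases before each start site (RefSeq, GRCm38.p6; chr13:73847632-73847881 for Nkd2 and chr11:108920099-108920348 for Axin2) are printed 5′ to 3′ on the gene's strand, with the motifs found in capitals.
Nkd2 promoter: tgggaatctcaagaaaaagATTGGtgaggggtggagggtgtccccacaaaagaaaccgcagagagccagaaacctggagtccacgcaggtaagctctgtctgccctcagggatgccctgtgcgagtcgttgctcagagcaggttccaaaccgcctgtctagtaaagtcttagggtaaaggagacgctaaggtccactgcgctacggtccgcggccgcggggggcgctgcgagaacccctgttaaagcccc
Axin2 promoter: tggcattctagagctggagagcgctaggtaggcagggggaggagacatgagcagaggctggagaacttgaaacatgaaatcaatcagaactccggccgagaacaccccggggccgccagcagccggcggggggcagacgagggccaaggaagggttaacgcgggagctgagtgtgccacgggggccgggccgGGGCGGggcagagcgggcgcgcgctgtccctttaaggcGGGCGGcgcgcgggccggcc
The capitals mark ATTGG, the opposite-strand form of CCAAT, in the Nkd2 window, and GGGCGG in the Axin2 window, which occurs at 2 places. Both strands were searched for a core of Tcf/Lef sites (CTTTGA), the GC box (GGGCGG), the CCAAT box and the TATA box (TATAAA), and the matches found do not overlap. Of 32851 windows of this length, 13.8% held the Tcf/Lef core, 32.7% the GC box, 33.8% the CCAAT box and 12.4% the TATA box. The Tcf/Lef core and the TATA box were in neither window. The Axin2 window was 69.2% G or C and the Nkd2 window 58.4%.

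In fibroblast-like cells Nkd2 had 1517 UMIs in the ligated library and 52, 27 and 37 UMIs in mock 1, mock 2 and mock 3. These are 148 CPM in the ligated library and 15.5 ± 8.60 CPM in the mock libraries (SD, n = 3), and the ligated value was above all of them. The log2 fold change was 3.38 ± 0.52 (SE; edgeR's quasi-likelihood test, Benjamini-Hochberg adjusted p = 0.114), and DESeq2 gave an adjusted p of 6.93e-05. Against mock 1 alone the ratio was 5.84 (counting interval 4.43 to 7.85). The gene was spread over many cells: 50.6% of ligated fibroblast-like cells had at least 1 UMI, against 13.8%, 5.65% and 5.61% of mock ones, and the 5 cells with the most held 3.36% of the ligated UMIs. With each cell thinned to 1500 UMIs, which left out 182 ligated cells and 6, 7 and 21 mock cells, the shares were 21.0% in the ligated library and 3.17%, 1.15% and 1.88% in the mock libraries.

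Axin2 had 216 UMIs in ligated fibroblast-like cells and 19, 26 and 25 UMIs in mock ones. Its level was 21.1 CPM in the ligated library, against 9.28, 9.39 and 7.69 CPM in mock 1, mock 2 and mock 3 (8.78 ± 0.952 CPM, SD, n = 3). The ligated value was above all 3, with a counting interval of 18.4 to 24.1 CPM. Those of mock 1, mock 2 and mock 3 were 5.59 to 14.5, 6.13 to 13.8 and 4.97 to 11.3 CPM, wide beside the mock SD. The log2 fold change was 1.37 ± 0.29 (edgeR, adjusted p = 0.198; DESeq2 adjusted p = 0.299), and the ratio to mock 1 was 2.27 (counting interval 1.42 to 3.85). With cells thinned to 1500 UMIs the share with an Axin2 UMI was 2.47% in the ligated library and 1.59%, 1.15% and 1.46% in the mock libraries, against 13.4% and 8.21%, 6.21% and 4.61% before thinning.

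Wnt5a, a ligand known mainly for the non-canonical branch, had 17.6 CPM in ligated fibroblast-like cells, against 25.4, 34.7 and 33.2 CPM in mock 1, mock 2 and mock 3. The counts behind these were 180 UMIs in the ligated library and 52, 96 and 108 UMIs in the mock libraries. The ligated value lay below all 3 mock values, with a log2 fold change of -0.72 ± 0.28 (edgeR, adjusted p = 0.391) and a ratio to mock 1 of 0.692 (counting interval 0.506 to 0.962). Wnt2, a canonical ligand known from lung mesenchyme, had 14.2 CPM in the ligated library and 13.2, 15.2 and 15.4 CPM in the mock libraries. It lay inside the mock range, and its log2 fold change was 0.06 ± 0.28 (edgeR, adjusted p = 0.934).

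Among the secreted Frizzled-related proteins, which bind Wnt ligands outside the cell, Sfrp1 had 226 CPM in ligated fibroblast-like cells, against 187, 126 and 115 CPM in mock 1, mock 2 and mock 3. The ligated value was above all 3, by a log2 fold change of 0.76 ± 0.35 (edgeR, adjusted p = 0.419), and by a ratio of 1.21 (counting interval 1.08 to 1.35) over mock 1. Sfrp2 had 51.8 CPM in the ligated library and 147, 105 and 38.4 CPM in the mock libraries. Sfrp4 had 14.6 CPM in the ligated library and 57.1, 43.3 and 10.5 CPM in the mock libraries. For both genes the ligated value lay between mock 3 and mock 2, and the mock SDs of 55.0 and 24.0 CPM were large beside the mock means of 97.1 and 37.0 CPM. The log2 fold changes were -0.80 ± 0.77 for Sfrp2 and -1.22 ± 0.95 for Sfrp4 (edgeR, adjusted p = 0.65 and 0.58).

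Few cells carried most of the Sfrp4 and Sfrp2 UMIs. For Sfrp4, the 5 highest fibroblast-like cells held 72.0% of its UMIs in the ligated library and 77.8%, 92.5% and 91.2% in the mock libraries, and 1 cell of mock 2 held 69 of that library's 120 UMIs. For Sfrp2, the 5 highest cells held 23.8% in the ligated library and 64.9%, 59.2% and 40.8% in the mock libraries. The ligated class was larger, with 1233 cells against 195, 354 and 499, which by itself lowers the share of its 5 highest cells. Sfrp4 levels thus rest on a handful of cells in every library, while ligated Sfrp2 was spread over 164 cells with a UMI.

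Dkk3, a divergent member of the Dickkopf family whose place in Wnt signalling is debated, had 43.6 CPM in ligated fibroblast-like cells, against 25.4, 17 and 12.9 CPM in mock 1, mock 2 and mock 3. The ligated value was above all 3, on counts of 446 UMIs in the ligated library and 52, 47 and 42 in the mock libraries. The log2 fold change was 1.36 ± 0.41 (edgeR, adjusted p = 0.316; DESeq2 adjusted p = 0.297), and the ratio to mock 1 was 1.72 (counting interval 1.29 to 2.33). Dkk2, which binds the co-receptor Lrp6, had 39 UMIs in 9 ligated fibroblast-like cells and 18, 0 and 0 UMIs in the mock ones, where all 18 were in 1 cell. Wif1, a secreted protein that binds Wnt ligands, had 8 UMIs in 2 ligated fibroblast-like cells and none in the mock ones, and did not pass the filter on low counts.

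Counting the members in fibroblast-like cells, 9 of 10 passed the filter, 0 passed edgeR's adjusted threshold (0% of 12086 genes tested did), and 1 passed with DESeq2, Nkd2, higher in the ligated library (1.23% of genes were called higher by DESeq2). At an unadjusted p under 0.05, 3 were higher in the ligated library (Nkd2, Axin2 and Dkk3; 6.38% of genes tested) and 0 were lower (6.54% of genes tested). After TMM scaling, which is used for all such counts here, the ligated value was above all 3 mock values for 4 members (30% of genes tested), below all 3 for 1 (28.9% of genes tested) and within their range for 4. The share above is 4 of 9, which is not far from the background, and a member had to be well counted in some library to enter it. Without mock 1, 7 members passed edgeR's threshold (Nkd2, Axin2, Dkk3, Dkk2, Sfrp1, Sfrp4 and Wnt5a), as did 54.9% of genes tested; that fit rests on mock 2 and mock 3, which differed little. With the software version as a term, which in effect sets the ligated library against mock 1, 6 passed (24.2% of genes tested): Nkd2, at 2.60, Axin2, at 1.24, Dkk3, at 0.84, Sfrp1, at 0.33, Sfrp2, at -1.45, and Sfrp4, at -1.90, all as log2 fold changes. Without a filter on low counts Nkd2 passed (edgeR adjusted p = 0.0358; 0.798% of genes tested). Calls of the version term rest on 1 residual degree of freedom, between mock 2 and mock 3. An exact permutation of 1 ligated against 3 mock libraries cannot give a p below 0.25.

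**Figure D2:**
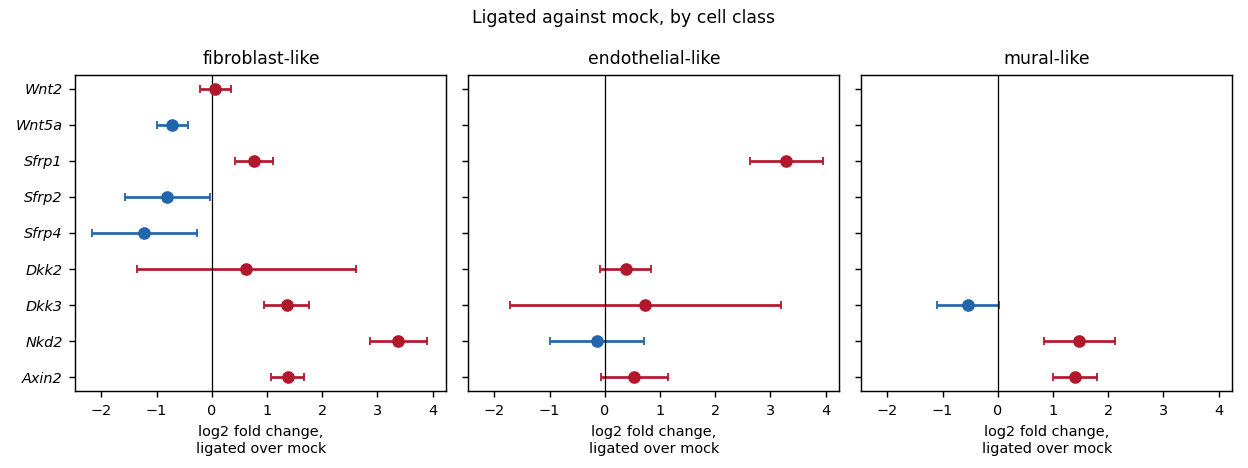
Log2 fold change of the members, ligated over mock (points, edgeR; bars are SE), in fibroblast-like, endothelial-like and mural-like cells, for members that passed the filter with at least 20 UMIs in the class. Nkd2 stands at 3.38 in fibroblast-like cells and at -0.14 in endothelial-like cells, and Axin2 is near 1.4 in both fibroblast-like and mural-like cells.

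Fibroblast-like cells were not the only cells with these transcripts. They held most of the UMIs of Wnt5a (94.2% in the ligated library and 98.1%, 97.0% and 96.4% in the mock libraries), Wnt2 (96.0% in the ligated library and 96.4%, 87.5% and 86.2% in the mock libraries), Sfrp2 and Sfrp4 (93.5% to 100% in every library). For Nkd2 the fibroblast-like share was 77.4% in the ligated library, against 27.5%, 23.3% and 36.3% in the mock libraries. Endothelial-like cells held 3.62% of Nkd2 UMIs in the ligated library, against 55.0%, 58.6% and 47.1% in the mock libraries. Fibroblast-like cells were 10.5% of ligated cells and 4.43%, 4.16% and 4.42% of mock cells, so these shares move with the number of cells as well as with the level per cell.

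**Figure D3:**
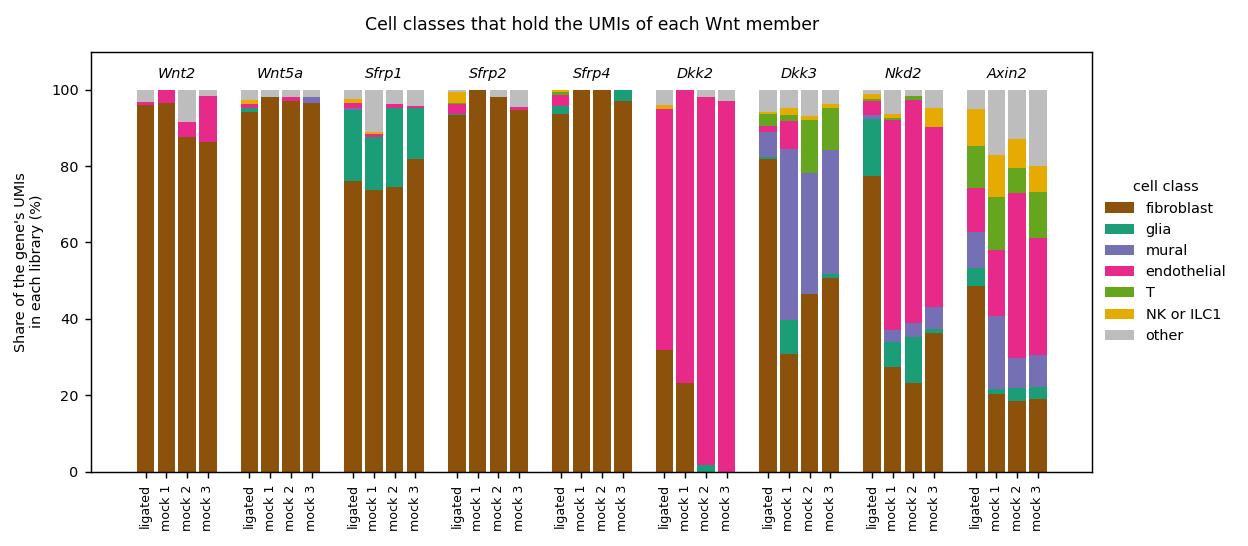
Share of each member's UMIs (%) that lay in each cell class, by library, with bars adding to 100% (Wif1 is left out). Fibroblast-like cells hold 77.4% of Nkd2 UMIs in the ligated library and 23.3% to 36.3% in the mock libraries, and Dkk2 lies mostly in endothelial-like cells in all 4.

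For Axin2 the fibroblast-like share was 48.6% in the ligated library and 20.4%, 18.4% and 19.1% in the mock libraries. For Dkk3 it was 82.0% in the ligated library and 30.8%, 46.5% and 50.6% in the mock libraries, where mural-like cells held 45%, 31.7% and 32.5%. Sfrp1 was shared with glia-like cells, which held 18.6% of its UMIs in the ligated library and 13.7%, 20.7% and 13.3% in the mock libraries. Dkk2 lay mostly in endothelial-like cells, with 63.1% of its UMIs in the ligated library and 76.9%, 96.4% and 97.1% in the mock libraries.

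In mural-like cells (pericytes and smooth muscle), Axin2 had 20.5 CPM in the ligated library, against 9.12, 7.49 and 7.06 CPM in mock 1, mock 2 and mock 3. The counts were 42 UMIs in the ligated library and 18, 11 and 11 in the mock libraries, and the ligated value was above all 3. The log2 fold change was 1.40 ± 0.40 (edgeR, adjusted p = 0.681), and the ratio to mock 1 was 2.25 (counting interval 1.26 to 4.14). The libraries lay in different mural-like clusters: those led by Rgs5, Pdgfrb and Abcc9 and by Acta2, Tagln and Myh11 held 300 and 231 ligated cells, 105 and 154 cells of mock 1, 22 and 11 of mock 2 and 29 and 15 of mock 3, and the other two held none of the ligated cells. In the first, Axin2 had 27.5 CPM in the ligated library and 10.9 CPM in mock 1, on 23 and 5 UMIs, and in the second 15.7 CPM in the ligated library and 8.59 CPM in mock 1, on 19 and 13 UMIs. The 9 fibroblast markers in ligated mural-like cells stood at a median of 1.88% of their level in fibroblast-like cells, against 0.0987%, 0.150% and 0.104% in the mock libraries. The ligated median was the value of Dpt, on 4 UMIs. The ranges overlapped, from 0.425% to 5.03% in the ligated library and from 0% to 6.53%, 7.06% and 7.47% in mock 1, mock 2 and mock 3. Axin2 had 20.5 CPM in ligated mural-like cells and 21.1 CPM in ligated fibroblast-like cells. The part of fibroblast-like RNA in the mural-like values was not tested. Mural-like Nkd2 rested on 18 UMIs in the ligated library and 6, 4 and 6 in the mock libraries (8.78 CPM against 3.04, 2.72 and 3.85 CPM; log2 fold change 1.48 ± 0.64, edgeR adjusted p = 0.689). It met the filter on low counts through the ligated library alone, so its place above the mock values supports no difference. Dkk3 was within the mock range in mural-like cells, at 17.6 CPM in the ligated library and 38.5, 21.8 and 17.3 CPM in the mock libraries. In all, 3 of 10 members passed the filter in mural-like cells, 0 were called by edgeR (0% of 10954 genes) or DESeq2 (0.073% of genes called higher, 0.0365% lower), 1 was higher and 0 lower at an unadjusted p under 0.05 (3.63% and 3.59% of genes), 2 were above all mock values (28.2% of genes), 0 below (26.9%) and 1 was within their range. Without mock 1, Axin2 passed in mural-like cells (log2 fold change 1.57, edgeR adjusted p = 0.00156; 27.1% of genes passed), and with the version term Dkk3 did (-1.16, edgeR adjusted p = 0.00196; 14.2% of genes passed).

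In endothelial-like cells, which made up 35.4% of ligated cells and 60.2%, 64.0% and 62.8% of mock cells, Nkd2 had 3.68 CPM in the ligated library, against 6.85, 2.94 and 1.91 CPM in mock 1, mock 2 and mock 3. The ligated value lay inside the mock range, with a log2 fold change of -0.14 ± 0.85. Axin2 had 2.65 CPM in the ligated library and 1.05, 2.64 and 1.59 CPM in the mock libraries (0.54 ± 0.61). Dkk2 had 3.99 CPM in the ligated library and 3.95, 2.29 and 2.66 CPM in the mock libraries (0.38 ± 0.47, edgeR adjusted p = 0.769). Most of its endothelial UMIs, 67 in the ligated library and 58, 51 and 63 in the mock libraries, were in 1 cluster led by Stmn2, Cldn5, Fbln5, Sema3g, Sox17 and Gja4, genes that include arterial markers, at 27.6 CPM in the ligated library and 40.7, 18.9 and 18.2 CPM in the mock libraries. Of 10 members, 6 passed the filter in endothelial-like cells, 0 were called by edgeR (0% of 14169 genes) or DESeq2 (0.896% of genes called higher, 0.649% lower), 2 were higher and 0 lower at an unadjusted p under 0.05 (5.9% and 3.07% of genes), 2 were above all mock values (28.9% of genes), 0 below (27.3%) and 4 were within their range. Both counts of 2 were made up of Sfrp1 and Sfrp2, with 39 and 15 UMIs in the ligated library. Their mock counts were 4, 5 and 3 UMIs for Sfrp1 and 0, 0 and 1 for Sfrp2. In the ligated library they stood at 0.894% and 1.5% of their fibroblast-like level, where fibroblast markers stood at 0.458% to 1.25%. The part of fibroblast-like RNA in these 2 members was not tested. The filter asks for enough counts in only 1 library, and both members met it through the ligated one alone, so neither count of 2 supports a difference. Unscaled, the CPM of Axin2 and Dkk2 given above also exceed every mock value, by little. The libraries differed in the endothelial-like clusters too: the one led by Aqp1, Igfbp3 and Flt1 held 2680 ligated cells and 284, 35 and 48 mock cells, while one led by Rbp7, Flt1 and Esm1 held 79 ligated cells and 319, 1752 and 2521 mock cells, and one led by Rbp7, Flt1 and Btnl9 held 131 ligated cells and 1388, 224 and 244 mock cells. The last held 76 of the 104 endothelial Nkd2 UMIs of mock 1. Without mock 1, Nkd2 was on the other side of 0 in endothelial-like cells, at 0.59 (edgeR adjusted p = 0.0466; 62.8% of genes passed). With the version term it was -0.99 (edgeR adjusted p = 0.00083; 35.9% of genes passed), so the endothelial Nkd2 values have no settled direction.

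Sfrp1 in endothelial-like cells had 39 UMIs in the ligated library and 4, 5 and 3 UMIs in the mock libraries, a log2 fold change of 3.29 ± 0.66 (edgeR, adjusted p = 0.447). At 2.02 CPM, the ligated level was 0.894% of that in ligated fibroblast-like cells. The 9 fibroblast markers stood at 0.458% to 1.25% of their fibroblast-like level in ligated endothelial-like cells, with medians of 0.603% in the ligated library and 0.0908%, 0.0339% and 0.0340% in the mock libraries. The upper end of that range was Dpt, on 25 UMIs, and the next marker was Lum, at 0.884%. The Sfrp1 level lay between those of Lum and Dpt, and no expression by endothelial cells is read from it. In NK- or ILC1-like cells, where Sfrp1 had 32 UMIs in the ligated library and 3, 0 and 0 in the mock libraries, it stood at 0.725% of its fibroblast-like level, and the markers ran from 0.338% to 0.892%.

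In the lymphoid classes few members were counted well enough to test. NK- or ILC1-like cells split by library as well, with 3086 ligated cells and 496, 10 and 37 mock cells in a cluster led by Gzmc, Cd7 and Ccl5, and 6 ligated cells and 1, 964 and 1410 mock cells in one led by Xcl1, Klra4 and Gzmb. In this class 3 of 10 passed the filter (Sfrp1, Nkd2 and Axin2). Nkd2 had 29 UMIs in the ligated library and 2, 0 and 5 in the mock libraries (1.49 CPM against 0.449, 0 and 0.534 CPM). Axin2 had 43 UMIs in the ligated library and 10, 11 and 9 in the mock libraries, but 2.21 CPM in the ligated library and 2.24 CPM in mock 1. Of the 3 members, 0 were called by edgeR (0% of 12278 genes) or DESeq2 (0.122% of genes called higher, 0.163% lower). At an unadjusted p under 0.05, 0 were higher or lower (3.18% and 2.72% of genes). Sfrp1 and Nkd2 were above all mock values (27% of genes), 0 members were below (27.8%) and Axin2 was within the mock range. Sfrp1 and Nkd2 met the filter through the ligated library alone, so their place above supports no difference. In T-like cells 2 of 10 passed the filter (Dkk3 and Axin2), 0 were called by edgeR (0.0101% of 9858 genes were called higher, 0% lower) or DESeq2 (0.0913% higher, 0.162% lower), 0 were higher or lower at an unadjusted p under 0.05 (2.63% and 7.38% of genes), 0 were above all mock values (26.1% of genes) and 1 was below (25.5%). No member passed the filter in macrophage- or monocyte-like cells.

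Whether the surgery difference itself differed between classes was tested with a surgery-by-class term over the fibroblast-like, endothelial-like and mural-like sums (edgeR, 13332 genes). Nkd2 differed between fibroblast-like and endothelial-like cells by 3.46 ± 0.35 on the log2 scale (adjusted p = 0.000247), at 3.38 in fibroblast-like and -0.14 in endothelial-like cells when the classes were fitted apart. It was the 1 member called with a larger fold change in fibroblast-like cells (2.61% of genes), and 3 had a larger one in endothelial-like cells (3.29% of genes): Sfrp1, at -2.42 ± 0.36 (adjusted p = 0.00279), Sfrp2 and Sfrp4. Those 3 rested on 51, 16 and 5 endothelial UMIs, of which 39, 15 and 5 were in the ligated library, where they stood at 0.894%, 1.5% and 1.77% of their fibroblast-like level, beside the marker range of 0.458% to 1.25%. Against mock counts of 0 or 1 the Sfrp2 and Sfrp4 terms support no difference between the classes, and the Sfrp4 call was lost without mock 2 (adjusted p = 0.176), without mock 3 (adjusted p = 0.109) and with Scrublet's own doublet threshold (adjusted p = 0.138). Without mock 1, 7 members passed (28.7% of genes did). Between fibroblast-like and mural-like cells 0 members passed (1.25% of genes were called with a larger fold change in fibroblast-like cells and 0.563% with a smaller one): the differences were 1.88 ± 0.61 for Nkd2 (adjusted p = 0.188), 1.90 ± 0.61 for Dkk3 (adjusted p = 0.185) and 0.07 ± 0.53 for Axin2 (adjusted p = 0.999). Without mock 1, Nkd2 and Dkk3 passed against mural-like cells (2.49 and 1.80; 11.9% of genes passed).

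Glia-like cells, all of 1 cluster, were too few in some libraries for a test (289 ligated cells and 22, 35 and 39 mock cells). Sfrp1 had 615 CPM in ligated glia-like cells, against 711, 886 and 477 CPM in mock 1, mock 2 and mock 3, inside the mock range. Nkd2 had 320 CPM in the ligated library and 120, 128 and 7.81 CPM in the mock libraries, on 294 UMIs against 12, 14 and 1, and the ligated value was above all 3. Against mock 1 its ratio was 2.67 (counting interval 1.5 to 5.22), and with cells thinned to 1500 UMIs the share with an Nkd2 UMI was 34.0% in the ligated library and 10.0%, 19.2% and 0% in the mock libraries. Axin2 in the same cells had 22.9 CPM in the ligated library and 10.0, 45.7 and 31.2 CPM in the mock libraries, on at most 5 UMIs in a mock library.

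The ligated and mock fibroblast-like cells fell largely into different clusters. The cluster led by Cxcl14, Dcn, Mgp, Cilp and Spp1 held 1015 ligated cells and 64, 20 and 34 mock cells, the one led by Dcn, Gsn, Lama2 and Lsamp held 16 ligated cells and 118, 328 and 458 mock cells, and a small one led by Pi16, C3, Dpt and Clec3b held 8 ligated cells and 12, 6 and 7 mock cells. A further cluster, with a median of 718 UMIs per cell, held 194 ligated cells and 1, 0 and 0 mock cells. It was led by Cxcl14, Mgp and Col3a1 with the immune genes Ccl5 and Ccl4 among its top genes, and in a sub-clustering 189 ligated and 0 mock cells of like depth (median 721 UMIs) were led by Tyrobp, Gzmc and Ctsw, genes of NK cells, so the fibroblast-like name is doubtful for them; they are among the sub-clusters left out in the alternative given above. With 1 ligated library, a cluster mostly of that library may be the library and not a state of the cells, and the 2 cannot be told apart.

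**Figure D4:**
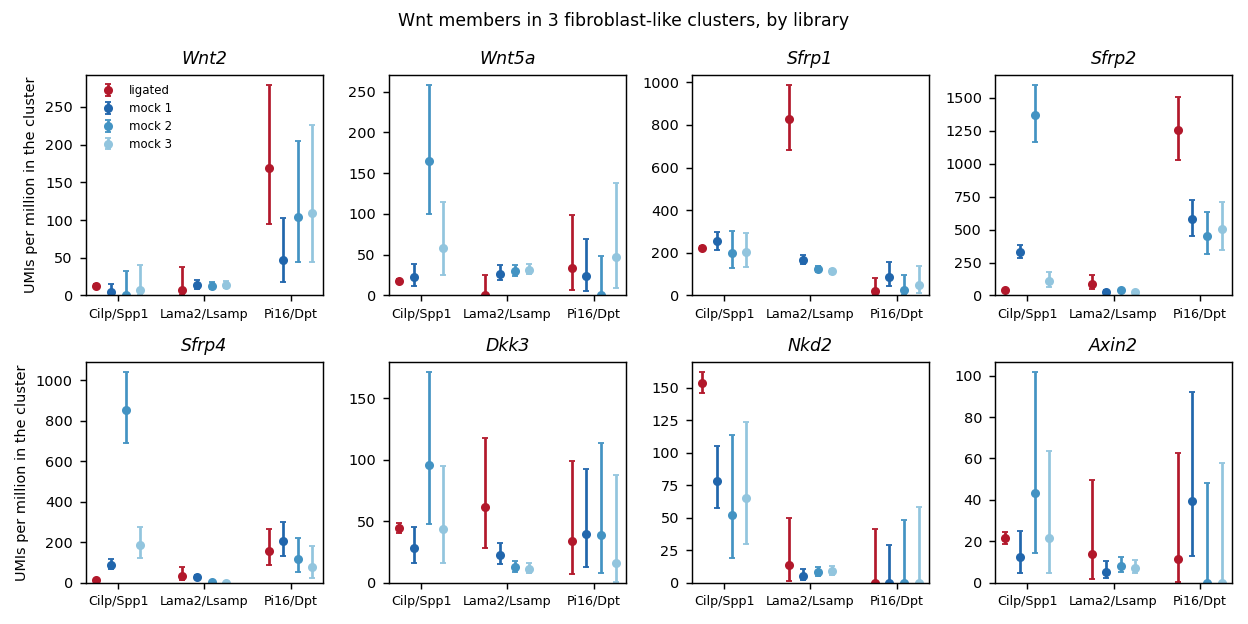
Level of 8 members (CPM, linear axes from 0) in 3 fibroblast-like clusters, named by leading genes, in the ligated library and the 3 mock libraries; bars are exact 95% Poisson intervals for counting error only. In the Cilp/Spp1-led cluster Nkd2 stands at 154 CPM in the ligated library, against 52.2 to 78.7 CPM in the mock libraries, and Sfrp2 and Wnt2 are high in the Pi16/Dpt-led cluster.

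Within the Cilp- and Spp1-led cluster Nkd2 had 154 CPM in the ligated library, against 78.7, 52.2 and 65.3 CPM in mock 1, mock 2 and mock 3, on 1503 UMIs against 45, 6 and 9. The ligated value was still above all 3, but by less, with a log2 fold change of 1.26 ± 0.45 (edgeR, adjusted p = 0.492). In the Lama2- and Lsamp-led cluster Nkd2 had 13.8 CPM in the ligated library and 5.2, 8.1 and 9.2 CPM in the mock libraries, and the Pi16- and Dpt-led cluster had no Nkd2 UMI in any library. The mock cells of the Cilp- and Spp1-led cluster thus had more Nkd2 than the other mock fibroblast-like cells, in each of the 3 mock libraries.

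Axin2 and Dkk3 were not higher in the ligated library within that cluster. Axin2 had 21.4 CPM there in the ligated library and 12.2, 43.5 and 21.8 CPM in the mock libraries, a log2 fold change of 0.06. Dkk3 had 44.2 CPM in the ligated library and 28.0, 95.7 and 43.6 CPM in the mock libraries, a log2 fold change of -0.05. Both mock 2 values rested on few UMIs, in 20 cells.

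Sfrp2, Sfrp4 and Wnt5a were lower in the ligated library within that cluster. Sfrp2 had 40.8 CPM in the ligated library, against 330, 1366 and 109 CPM in mock 1, mock 2 and mock 3, and passed the test there (log2 fold change -3.74, edgeR adjusted p = 0.0258; 0.708% of 7060 genes passed). Sfrp4 had 13.2 CPM in the ligated library, against 89.1, 853 and 189 CPM in the mock libraries, and passed as well (-4.65, edgeR adjusted p = 0.00586). The mock values came from 64, 20 and 34 cells, and 1 mock 2 cell alone carried 69 Sfrp4 UMIs. Sfrp2 was held by few mock cells too. Over the whole fibroblast-like class, its 5 highest cells held 64.9%, 59.2% and 40.8% of its UMIs in mock 1, mock 2 and mock 3. In the ligated library they held 23.8%. How far single mock cells set the Sfrp2 call in this cluster was not tested. Wnt5a had 17.9 CPM in the ligated library and 22.7, 165 and 58.1 CPM in the mock libraries (-1.86).

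The Pi16- and Dpt-led cells, which share genes with fibroblasts of the outer layer of vessels and organs, had high levels of 3 members in every library. They were few, with 8 ligated cells and 12, 6 and 7 mock cells. For Sfrp2 and Sfrp4 the high level is not particular to them. In the Cilp- and Spp1-led cluster, the mock 2 values of both genes and the mock 3 value of Sfrp4, given above, were higher. Sfrp2 had 1252 CPM there in the ligated library and 577, 455 and 503 CPM in the mock libraries. Wnt2 had 169 CPM in the ligated library and 47.4, 104 and 110 CPM in the mock libraries, on 15 UMIs against 6, 8 and 7, and Sfrp4 had 158 CPM in the ligated library and 206, 117 and 78.6 CPM in the mock libraries. The Lama2- and Lsamp-led cells had 826 CPM of Sfrp1 in the ligated library, from 16 cells, against 168, 126 and 113 CPM in the mock libraries.

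By counting error alone, 2 sub-clusters of the ligated fibroblast-like cells differed in 5 members. A sub-cluster of 338 ligated cells led by Ccn5, Adra2c and Fxyd6 had 42.5 CPM of Axin2, against 9.64 CPM in 420 ligated cells led by Thbs4, Ltbp2 and Spp1. The mural marker Rgs5 was also among the leading genes of the Ccn5-led cells. Wnt2 ran the other way, at 1.65 CPM in the Ccn5-led cells and 16.3 CPM in the Thbs4-led cells, on 4 and 76 UMIs. The ratio of the first to the second was 4.41 for Axin2 (counting interval 3.08 to 6.41) and 0.101 for Wnt2 (0.0269 to 0.270). It was 2.87 for Sfrp2 (2.04 to 4.07), 0.404 for Wnt5a (0.243 to 0.644) and 0.0838 for Dkk2 (0.00203 to 0.516), the last on 1 and 23 UMIs. Nkd2 had 175 and 158 CPM, a ratio of 1.11 (0.978 to 1.25), and Sfrp1 had 194 and 208 CPM, a ratio of 0.934 (0.835 to 1.04), both with intervals that include 1. These cells come from 1 library, so the differences have no replicate check, and the intervals do not cover the clumping of UMIs in single cells.

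By a rule on correlation over 36 profiles of class and library (log2 of CPM plus 10, 10 classes, 13510 genes, profiles of a library sharing its depth), the genes most like Nkd2 were Col12a1 (Pearson r = 0.932), Serpina3n (0.922) and Timp1 (0.893). Those most like Axin2 were led by Ptpn13 (0.887). The genes most like Wnt2, Wnt5a, Sfrp1 and Sfrp2 were led by Fgf7 (0.997), Col6a6 (0.995), Scn7a (0.992) and Bdh2 (0.992), and Sfrp4 was most like Sfrp2 (0.960). Dkk3 was most like Gpr27 (0.899) and Dkk2 like Cda (0.792), a weaker likeness than for the others.

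Of the wider Wnt list of 80 genes, 70 are not members, and 39 of these passed the filter in fibroblast-like cells. None passed edgeR's adjusted threshold, 11 were above all 3 mock values (30% of genes tested), 16 were below all 3 (28.9% of genes tested) and 12 were within their range. At an unadjusted p under 0.05, 3 were higher and 8 lower (6.38% and 6.54% of genes tested), and DESeq2 called 2 higher (Wnt9a and Wls; 1.23% of genes tested) and 3 lower (Rspo1, Rspo3 and Lrp5; 1.77% of genes tested). The median log2 fold change of the 39 was -0.12, beside -0.04 over all genes tested.

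**Figure D5:**
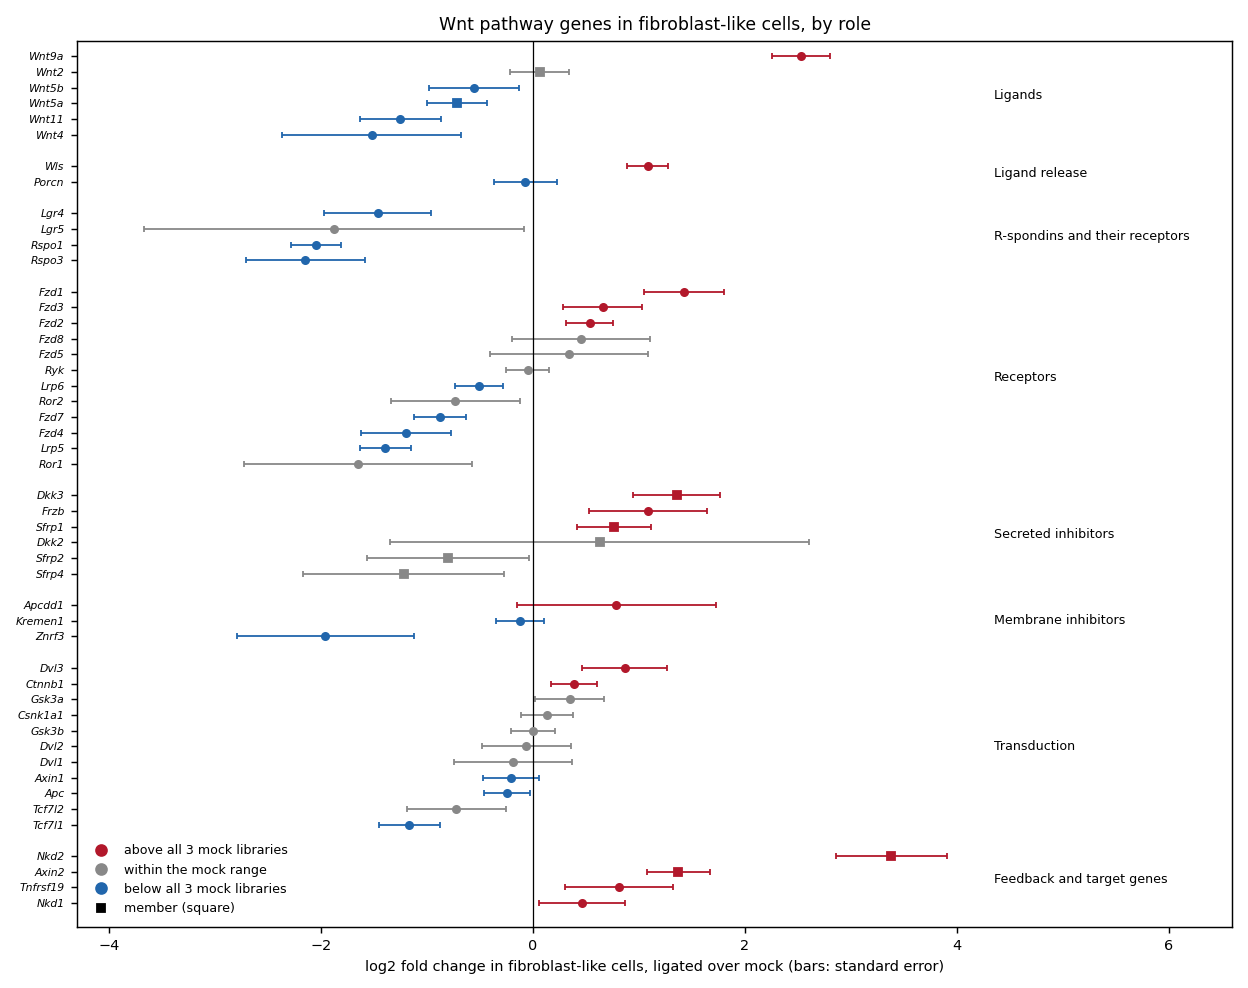
Log2 fold change, ligated over mock, of the Wnt-list genes that passed the filter in fibroblast-like cells, grouped by role (squares are the members, bars are SE from edgeR, colours give the position against the 3 mock libraries). All 4 feedback and target genes that could be tested lie above all 3 mock values (30% of genes tested do), and these include the members Nkd2 and Axin2, listed with earlier results known. Of 4 R-spondins and R-spondin receptors, 3 lie below (28.9% of genes tested do).

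Of the feedback and target genes, 4 of 7 passed the filter in fibroblast-like cells, and all 4 were above every mock value (30% of genes tested were). Their median was 1.09 beside -0.04 over all genes tested, and no enrichment was tested. The 4 include the members Nkd2 and Axin2, listed with earlier results of these data known, so this count and median support no reading of the pathway. Of 5 tested in endothelial-like cells, 2 were above and 0 below every mock value (28.9% and 27.3% of genes), with a median of 0.54. Of 3 tested in mural-like cells, 2 were above, again the members Axin2 and Nkd2, and 0 below (28.2% and 26.9% of genes), with a median of 1.40. The lymphoid classes lay differently. Of 4 tested in NK- or ILC1-like cells, 1 was above and 2 were below (27% and 27.8% of genes), with Tcf7 called lower by DESeq2 (adjusted p = 0.0262). Of 3 tested in T-like cells, 0 were above and 2 below (26.1% and 25.5% of genes). In fibroblast-like cells the other two were Nkd1, at 9.96 CPM in the ligated library and 8.30, 9.39 and 5.84 CPM in the mock libraries, and Tnfrsf19, at 22.3 CPM in the ligated library and 6.84, 14.4 and 19.1 CPM in the mock libraries (log2 fold changes 0.46, and 0.81 ± 0.51 with an edgeR adjusted p of 0.508). Of 6 secreted inhibitors tested, 3 were above (30% of genes tested were) and 3 within the mock range. R-spondins amplify Wnt signals through Lgr receptors. Of 4 R-spondins and receptors tested, 3 were below (28.9% of genes tested were) and 1 within the mock range. Their median was -1.96 beside -0.04 over all genes tested, and enrichment was again not tested.

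Rspo1 had 15.8 CPM in ligated fibroblast-like cells, against 69.3, 69.3 and 72.6 CPM in mock 1, mock 2 and mock 3. The mock values were close together, also that of mock 1, made with the same software version as the ligated library (log2 fold change -2.05 ± 0.23, edgeR adjusted p = 0.0931, DESeq2 adjusted p = 1.7e-05). Rspo3 had 91.6 CPM in the ligated library, against 238, 530 and 551 CPM in the mock libraries (-2.15 ± 0.56, edgeR adjusted p = 0.265, DESeq2 adjusted p = 0.0054), and its mock values split by software version. In endothelial-like cells Rspo3 was again below all mock values, at 6.38 CPM in the ligated library and 15.3, 17.2 and 16.9 CPM in the mock libraries (-1.42 ± 0.20, edgeR adjusted p = 0.357, DESeq2 adjusted p = 0.0048). Of the 70 listed genes that are not members, 42 passed the filter in endothelial-like cells, with a median log2 fold change of -0.17. Of these, 10 were above (28.9% of genes tested), 11 below (27.3%) and 21 within the mock range. In mural-like cells 30 passed, with 4 above (28.2% of genes tested), 10 below (26.9%) and 16 within and a median of -0.23.

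Of 6 ligands tested, 1 was above (30% of genes tested), 4 were below (28.9%) and 1 was within the mock range. Their median was -0.64. The one above was Wnt9a, at 34.2 CPM in ligated fibroblast-like cells and 5.37, 6.86 and 6.76 CPM in mock 1, mock 2 and mock 3. Its log2 fold change was 2.53 ± 0.27 (edgeR adjusted p = 0.0883, DESeq2 adjusted p = 0.0024), and the ratio to mock 1 was 6.36 (counting interval 3.51 to 12.9). Wls, which carries Wnt ligands to the cell surface, had 339 CPM in the ligated library, against 179, 166 and 170 CPM in the mock libraries (1.08 ± 0.19, edgeR adjusted p = 0.145, DESeq2 adjusted p = 0.0259).

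Receptors were mixed, with 3 of 12 tested above (30% of genes tested), 4 below (28.9%) and 5 within the mock range. Fzd1 had 192 CPM in ligated fibroblast-like cells and 105, 59.6 and 65.2 CPM in mock 1, mock 2 and mock 3 (1.43 ± 0.38, edgeR adjusted p = 0.271). The co-receptor Lrp5 had 15.3 CPM in the ligated library and 40.5, 44.1 and 45.5 CPM in the mock libraries (-1.39 ± 0.24, edgeR adjusted p = 0.137, DESeq2 adjusted p = 0.0347), and Lrp6 had 110 CPM in the ligated library and 166, 153 and 184 CPM in the mock libraries (-0.51 ± 0.23, edgeR adjusted p = 0.415). Ror1, a receptor of Wnt5a, had 42.5 CPM in the ligated library and 31.2, 201 and 201 CPM in mock 1, mock 2 and mock 3, so its mock values split with the software version, and the ligated value stood beside that of mock 1. Ctnnb1, which encodes β-catenin, had 228 CPM in the ligated library and 206, 182 and 175 CPM in the mock libraries (0.39 ± 0.22, edgeR adjusted p = 0.48).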

How the data were processed

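The deposited matrices hold raw UMI counts per gene and cell barcode, one per library. Per the file headers the Cell Ranger version was 6.0.1 for the ligated and mock 1 libraries and 7.0.0 for mock 2 and mock 3, while the submitters' processing notes name 7.0.1 and mm10; the sources used here do not say if intronic reads were counted. The gene lists had 32285 IDs (ligated) and 31053, 32287 and 32287 IDs (mock 1, 2 and 3), and the 30406 shared IDs were used. IDs outside them held 0.456% of the ligated UMIs and 0.0538%, 0.449% and 0.451% of the mock UMIs.

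Of 13790 ligated and 4798, 9627 and 13194 mock barcodes, those under 500 UMIs, under 300 genes or over 15% mitochondrial UMIs were dropped. The highest Scrublet scores, 0.8% per 1000 barcodes, were then removed as doublets. Cells of all libraries were clustered together (scanpy 1.11.5, 2000 variable genes without the Wnt list, 30 components, 15 neighbours, Leiden resolution 1.0), and clusters were named from marker lists of at least 3 detected genes. Raw UMIs were summed per library and class and tested with edgeR 4.0.16 (TMM, quasi-likelihood, filterByExpr, Benjamini-Hochberg over all genes of the class, threshold 0.05), with 2 residual degrees of freedom; a class needed at least 30 cells in each library. DESeq2 1.42.0 was an alternative, and the tests were tried on simulated counts. CPM are UMIs per 1000000 UMIs of the class in a library, without scaling factors. The members, the wider Wnt list and the markers were chosen with earlier results of these data known. Named genes were the members, the 4 genes of each role with the most UMIs in the fibroblast-like, endothelial-like and mural-like classes, called genes, and the 3 most correlated genes per member; Lrp5 in fibroblast-like cells was named after its values were seen. Intervals are exact at 95% and cover counting error only.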

Additional observations from a re-analysis of the deposited data

Results flagged for a closer look

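The difference between the ligated and mock libraries was itself tested for a difference between fibroblast-like and endothelial-like cells (surgery-by-class term, edgeR, log2 scale), and 4 members passed; with 1 ligated library the term compares libraries. It was 3.46 ± 0.35 for Nkd2 (adjusted p = 0.000247), -2.42 ± 0.36 for Sfrp1 (adjusted p = 0.00279), -5.34 ± 0.81 for Sfrp2 (adjusted p = 0.00518) and -5.33 ± 1.18 for Sfrp4 (adjusted p = 0.0458). Nkd2 rested on 291 endothelial UMIs over the 4 libraries, Sfrp1 on 51, Sfrp2 on 16 (15 in the ligated library, and 0, 0 and 1 in the mock libraries) and Sfrp4 on 5, all in the ligated library, so the Sfrp2 and Sfrp4 terms rest on mock counts of 0 or 1, depend on the prior count and support no difference between the classes, and the Sfrp4 call was lost without mock 2, without mock 3 and with Scrublet's own doublet threshold. Fibroblast markers in ligated endothelial-like cells stood at a median of 0.603% of their fibroblast-like level, against 0.0908%, 0.0339% and 0.0340% in mock 1, mock 2 and mock 3; the part of this in the Sfrp1, Sfrp2 and Sfrp4 values was not tested.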

How the results depend on the processing

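Counts of members past the adjusted threshold moved with several choices. In fibroblast-like cells 0 members passed (0% of genes tested). With other choices 1 passed without a filter on low counts (0.798% of genes) and 6 with the software version as a term (24.2%). Within the Cilp- and Spp1-led cluster 2 passed (0.708%), and with DESeq2 1 did (3.00%). With each mock library left out it was 0 to 7 (54.9% of genes without mock 1). In endothelial-like cells 0 passed, 4 with the version term (35.9% of genes) and 0 to 4 with a mock library left out (62.8% without mock 1). In mural-like cells 0 passed, 1 with the version term (14.2%) and 0 to 1 with a mock library left out (27.1% without mock 1). In NK- or ILC1-like cells it was 0 to 2 with a mock library left out, where 7235 of 12407 genes passed without mock 1. In T-like and macrophage- or monocyte-like cells it was 0 to 0. Of the surgery-by-class terms, 4 passed against endothelial-like cells, and 3 to 7 with a mock library left out (28.7% of genes without mock 1). Against mural-like cells 0 passed, 1 without a filter and 0 to 2 with a mock library left out (11.9% of genes without mock 1). The highest counts came without mock 1 and rest on mock 2 and mock 3, which may not be independent. The ligated library could not be left out. No paired analysis was possible, with 1 ligated library and no label that links it to a mock library.

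Log2 values changed sign as follows. In fibroblast-like cells Dkk2 was -1.14 with the version term and -0.0759 to 7.43 with a mock library left out, Dkk3 was -0.0462 in the Cilp- and Spp1-led cluster, Sfrp2 was 0.0102 with Scrublet's own threshold, and Wnt2 was -0.0455 without scaling factors. With the version term, Dkk2 was -0.0787 and Dkk3 -1.01 in endothelial-like cells and Axin2 was -0.0315 in NK- or ILC1-like cells. With a mock library left out, Nkd2 in endothelial-like cells was -0.477 to 0.588, Axin2 in T-like cells -0.631 to 0.117, the terms against endothelial-like cells -0.0213 to 7.67 for Dkk2 and -3.35 to 0.943 for Dkk3, and the Axin2 term against mural-like cells -0.0878 to 0.115 (-0.188 with Scrublet's threshold). The cause was not tested. Nkd2 in fibroblast-like cells stayed between 1.26 and 3.94 over 15 alternatives (adjusted p up to 0.492), and its term against endothelial-like cells between 3.29 and 3.66 over 6. No scaling, the summing of mock 2 with mock 3 and the leaving out of sub-clusters led by genes of other classes were chosen after seeing the data.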

Other observations

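Outside the classes compared above, some small groups of cells held single members. ILC2-like cells (innate lymphoid cells of the type that makes type-2 cytokines) had 43.6 CPM of Axin2 in the ligated library and 41.8, 28.9 and 38.8 CPM in mock 1, mock 2 and mock 3, on 15 UMIs against 9, 13 and 19. A T-like cluster led by Il7r, Cd3g, Trdc and Cd163l1, genes of γδ T cells among them, held 15 of 17 T-like Dkk3 UMIs in the ligated library and all 3, 14 and 9 in the mock libraries. Its Dkk3 level was 38.1 CPM in the ligated library and 33.5, 47.5 and 34.2 CPM in the mock libraries. An unnamed cluster led by Dcpp3, Dcpp2, Dcpp1, Wfdc18 and Acta2 had 296 CPM of Sfrp1 in the ligated library and 325, 90.0 and 86.6 CPM in the mock libraries.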
